A study of Danio rerio with 18 samples.

Results

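Conjugation enzymes of the zebrafish digestive organs were followed after a meal. The members are the genes whose symbols begin with ugt (UDP-glucuronosyltransferases), gst or mgst (glutathione S-transferases and the microsomal ones) or sult (cytosolic sulfotransferases), followed by a class letter or a number. A member also needed an average of at least -1 on the log2 CPM scale (read counts scaled to library size, over all samples), and of several transcripts with 1 symbol the one with the highest average was used. Of 57 matching symbols 52 met this minimum, among 14452 genes of the table that did: 21 ugt, 16 gst or mgst and 15 sult. The lowest member was sult2st3 at an average log2 CPM of -0.90, and the nearest symbols outside were sult1st7 at -1.25 and ugt5c1 at -1.30. In 8 members, all ugt, the symbol joins several genes, for example ugt5a2;ugt5a3;ugt5a4, and such a value cannot be split between them.

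Messenger RNA was sequenced from wild-type larvae of the AB strain at 6.5 days post fertilization. The 18 samples fall into 6 groups of 3: larvae fed a high-fat meal of 5% egg yolk emulsion (at 1 h and at 4 h), larvae fed a low-fat meal of 10% egg white (at 1 h and at 4 h), and unfed larvae of the high-fat cohort and of the low-fat cohort. Dissected intestine, liver and pancreas of 10 larvae made up a sample, and the submitters describe the 3 samples of a group as prepared independently from pairwise crosses. Both meals thus have their own unfed baseline, while the 1 h and 4 h comparisons of a meal share it.

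Conjugation makes small molecules more soluble so that they can leave the body in bile or urine. UDP-glucuronosyltransferases sit in the membrane of the endoplasmic reticulum and transfer a sugar, usually glucuronic acid, from a UDP-sugar; bilirubin, steroids and plant phenols are typical acceptors in mammals. Sulfotransferases move a sulfonate group from the donor PAPS to phenols, steroids and amines, and glutathione S-transferases join glutathione to reactive electrophiles. Liver and intestine are the main sites of these reactions in vertebrates, and compounds that arrive with food are among their substrates.

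The values are the authors' deposited comparisons, each with a log2 fold change (fed over unfed), a p-value and an adjusted p, and a member is called where its adjusted p is under 0.05. No sample's own values were analysed. Sequencing depth is therefore unknown, and a gene's spread between samples cannot be shown. How far the deposited p-values hold that spread is not known either. They may hold little of it, since at 1 h after each meal some genes with like fold changes had nearly the same adjusted p. Fold changes divided by the normal scores of their p-values, over genes of like expression level, gave an implied standard error of 0.357 to 0.437 for the members in the 4 comparisons. On the log2 scale, the smallest change in size called among all genes, members included, was 1.17 and 1.28 in the high-fat comparisons (1 h, then 4 h). In the low-fat ones (1 h, then 4 h) of the authors' deposited table it was 1.16 and 1.42. Defining genes of the dissected organs were present: on the log2 CPM scale the liver's fabp10a averaged 9.89, the enterocyte apolipoprotein gene apoa4 11.01 and the pancreatic protease gene ctrb1 13.42.

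At 1 h after either meal the ugt5a genes, ugt5d1 and neighbouring sult1 genes were higher than in unfed larvae, and no member was called lower. After the high-fat meal 5 of 52 members were called higher (9.62%, against 1.91% of all genes) and 0 lower (1.76% of all genes) in the authors' deposited table. After the low-fat meal 8 of 52 were called higher (15.4%, against 2.69% of all genes) and 0 lower (1.43% of all genes) in the authors' deposited table. The median log2 fold change of the members was 0.27 and 0.30 after the high-fat and the low-fat meal, against -0.02 and 0.02 over all genes, again at 1 h in the authors' deposited table. By family the medians at 1 h were 0.33 and 0.47 for ugt, 0.32 and 0.18 for gst and mgst and 0.05 and 0.21 for sult after the high-fat and the low-fat meal, and 40 of 52 members were above 0 after each, in the authors' deposited table. At an unadjusted p under 0.05, in either direction, the contrast with all genes at 1 h was smaller. In the high-fat comparison 21.2% of members reached it, against 14.6% of all genes, and all 11 had positive values. In the low-fat comparison 23.1% did, against 14.6%. Of these members 11 had positive values and 1, sult1st4 (-0.90), a negative one. At 4 h no member was called after either meal.

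**Figure D1:**
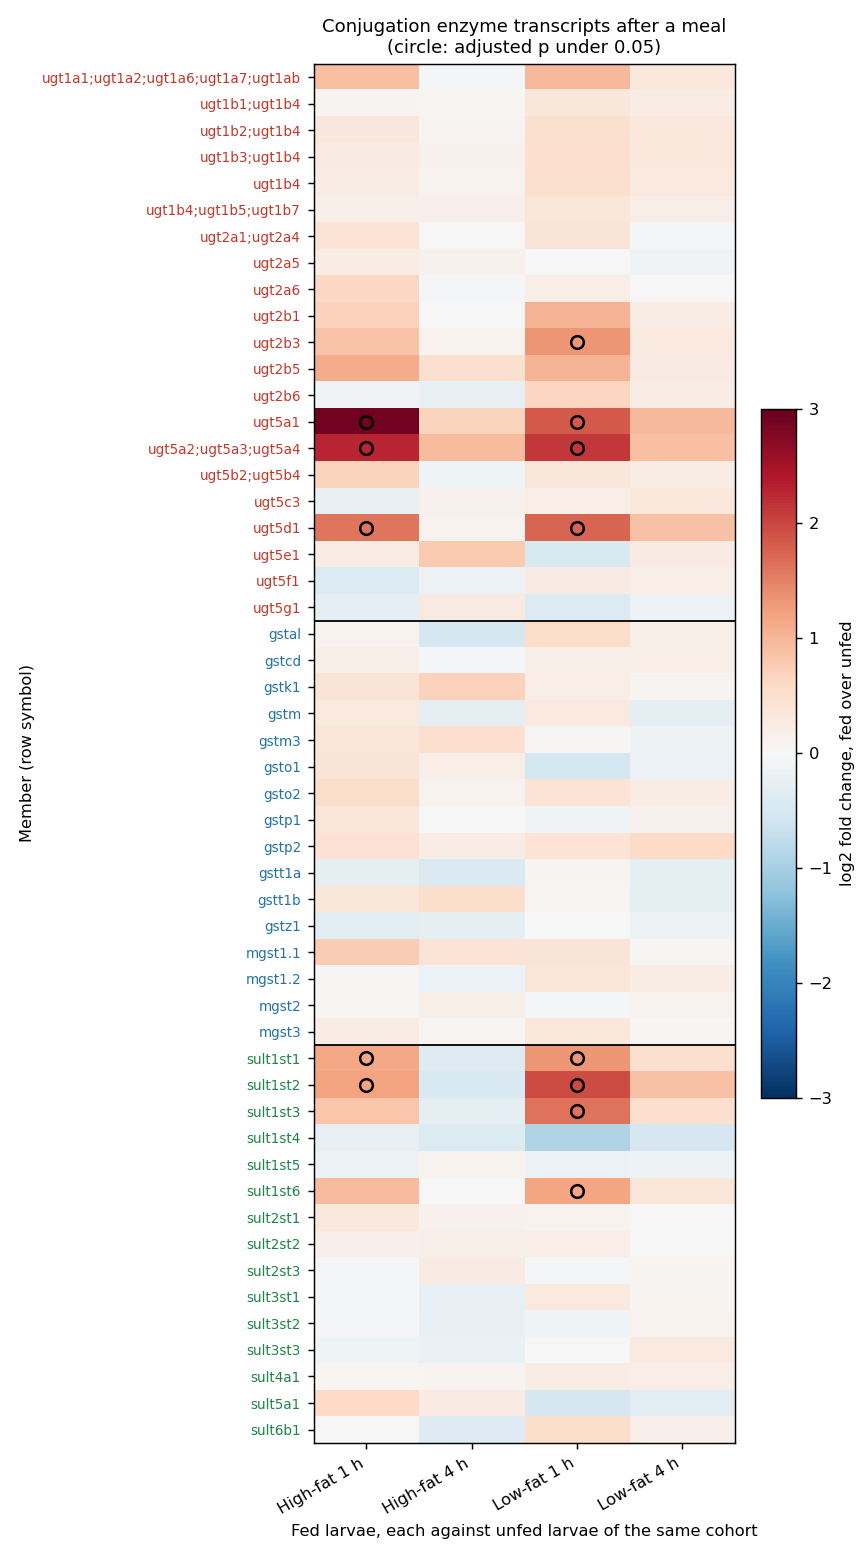
Log2 fold change of each of the 52 members (rows, by family: ugt, gst and mgst, sult) in the 4 comparisons of fed with unfed larvae (columns), where red is higher in fed larvae, blue is lower, and circles mark an adjusted p under 0.05 in the authors' deposited table. The 13 circles all lie in the 1 h columns and in red cells, on ugt5a, ugt5d1, ugt2b3 and sult1 rows.

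A ugt5a row had the largest change among the members at 1 h after each meal. UGT5 is a family of transferases described in fish. The transcript of ugt5a1 (ENSDART00000019183) rose at 1 h after the high-fat meal by 2.90 on the log2 scale, or 7.45-fold, in the authors' deposited table (adjusted p = 9.9e-11; implied 95% interval 2.19 to 3.61). Among the 14452 genes this was the change of rank 13 counted from the highest. At 1 h after the low-fat meal the same transcript rose by 1.83, or 3.55-fold, in the authors' deposited table (adjusted p = 1.7e-04; rank 126). Its average over all samples was 11.7 CPM.

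The joined row ugt5a2;ugt5a3;ugt5a4 (ENSDART00000110774) rose by 2.29 at 1 h after the high-fat meal and by 2.13 at 1 h after the low-fat meal (adjusted p = 6.2e-07 and 3.9e-06 in the authors' deposited table). In linear terms these are 4.88-fold and 4.36-fold. This row and ugt5a1 are given the same interval, on chromosome 25 from 30383164 to 30405014 of Zv9, so both may hold reads of the other's genes and are not separate evidence. The gene ugt5d1 (ENSDART00000140308) lies alone, on chromosome 10 from 26361124 to 26363174. It rose by 1.62 and 1.76 at 1 h after the high-fat and the low-fat meal (adjusted p = 0.0015 and 3.6e-04 in the authors' deposited table), or 3.06-fold and 3.38-fold.

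The remaining 5 rows of the ugt5 family did not pass at 1 h. The joined row ugt5b2;ugt5b4, with an average of 53.0 CPM, had 0.68 after the high-fat and 0.34 after the low-fat meal (adjusted p = 0.48 and 0.98 in the authors' deposited table). For ugt5c3, ugt5e1, ugt5f1 and ugt5g1 the log2 fold changes lay between -0.45 and 0.24 at 1 h in the authors' deposited table. Within this family the calls therefore fell on the ugt5a interval and on ugt5d1. With at most 2.69% of all genes called higher in a comparison, no call among the other 5 rows is near the background.

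Genes of the ugt1 and ugt2 families had mostly positive values at 1 h, with 1 call. In ugt2b3 (ENSDART00000130265, chromosome 5 from 9876480 to 9885949) expression rose by 1.31, or 2.49-fold, at 1 h after the low-fat meal (adjusted p = 0.016 in the authors' deposited table), while the value after the high-fat meal was 0.85 (adjusted p = 0.26). UGT2 enzymes of mammals act on steroids, bile acids and fatty acids. Its neighbours ugt2b5 and ugt2b1 did not pass: ugt2b5 had 1.12 and 1.02 at 1 h after the high-fat and the low-fat meal (adjusted p = 0.067 and 0.12 in the authors' deposited table). For ugt2b1 the values were 0.68 and 1.02 (adjusted p = 0.49 and 0.12 in the authors' deposited table). The ugt row that drew the most reads joins ugt1a1, ugt1a2, ugt1a6, ugt1a7 and ugt1ab, whose mammalian relatives include the bilirubin transferase, and averaged 186 CPM in these samples. That row, on chromosome 9 from 10194767 to 10228491, had 0.91 and 0.98 at 1 h after the high-fat and the low-fat meal in the authors' deposited table and did not pass (adjusted p = 0.20 and 0.13).

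The 5 ugt1b rows share an interval on chromosome 11 from 31171792 to 31205469 and, by their symbols, the gene ugt1b4. Their values at 1 h lay between 0.09 and 0.33 after the high-fat meal and between 0.34 and 0.51 after the low-fat meal in the authors' deposited table. The 3 ugt2a rows on chromosome 5, among them the joined row ugt2a1;ugt2a4 with an average of 46.8 CPM, had values from 0.23 to 0.61 after the high-fat and from 0.01 to 0.39 after the low-fat meal at 1 h in the authors' deposited table. None of these 8 rows passed in any comparison of the authors' deposited table.

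Sulfotransferase calls at 1 h fell, among the 15 sult members, on sult1 genes, the class that acts on phenols, catechols and thyroid hormones. The genes sult1st1, sult1st2 and sult1st3 follow each other on chromosome 8 from 48652961 to 48735311. In sult1st1 (ENSDART00000038924) the rise at 1 h after the high-fat meal was 1.17 in the authors' deposited table, just inside the threshold (adjusted p = 0.0497), and that after the low-fat meal was 1.32 (adjusted p = 0.016). For sult1st2 (ENSDART00000030482) the rise was 1.21, or 2.31-fold, after the high-fat and 1.96, or 3.88-fold, after the low-fat meal (adjusted p = 0.038 and 2.7e-05 in the authors' deposited table). The third gene, sult1st3 (ENSDART00000014240), had 0.83 after the high-fat meal and did not pass (adjusted p = 0.28), and rose by 1.63, or 3.10-fold, after the low-fat meal (adjusted p = 9.1e-04 in the authors' deposited table).

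A sult1 gene elsewhere, sult1st6 on chromosome 12 from 16077368 to 16084598, is annotated with estrone sulfotransferase activity in the deposited table. It rose by 1.18, or 2.26-fold, at 1 h after the low-fat meal (adjusted p = 0.043 in the authors' deposited table), against 0.94 after the high-fat meal (adjusted p = 0.17). The remaining pair of sult1 members did not pass. In the authors' deposited table sult1st4, which lies apart from the trio on chromosome 8, had -0.24 and -0.90 at 1 h after the high-fat and the low-fat meal (adjusted p = 1 and 0.23), and sult1st5 on chromosome 23 had -0.18 after each.

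The 9 members of sult2 to sult6 had no call, near the background of at most 2.69% of genes called higher per comparison. These classes include transferases of hydroxysteroids and bile alcohols (sult2) and a gene expressed in the nervous system of mammals (sult4a1). The row of sult6b1 drew the most reads of the sult members, with an average of 348 CPM and log2 fold changes of 0.01 and 0.53 at 1 h after the high-fat and the low-fat meal (adjusted p = 1 and 0.70 in the authors' deposited table). For sult2st2 the values were 0.14 and 0.21 in the authors' deposited table, with an adjusted p of 1 in both. For sult5a1 the values had opposite signs, 0.60 after the high-fat and -0.51 after the low-fat meal in the authors' deposited table, and neither value passed (adjusted p = 0.67 and 0.79).

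Glutathione S-transferases had 0 calls among 16 members in all 4 comparisons of the authors' deposited edgeR table. With at most 2.69% of all genes called higher in a comparison, a count of 0 among 16 is near the background and shows nothing particular to this family. An unadjusted p under 0.05 was reached once, by mgst1.1 in the high-fat comparison at 1 h (6.25% of the 16, against 14.6% of all genes), where the authors' deposited table gave 0.76 (adjusted p = 0.43). Their values at 1 h lay between -0.32 and 0.76 after the high-fat and between -0.52 and 0.54 after the low-fat meal in the authors' deposited table. The alpha class gene gstal (106 CPM), the pi class gene gstp1 (88.7 CPM), an electrophile-inducible gene in zebrafish, and the omega class gene gsto2 (65.3 CPM) drew the most reads of this family. Their log2 fold changes at 1 h after the high-fat meal were 0.10, 0.37 and 0.55 in the authors' deposited table. The low-fat values were 0.54, -0.10 and 0.40 in the authors' deposited table. CPM is not divided by transcript length, so these averages do not rank the genes by number of molecules.

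**Figure D2:**
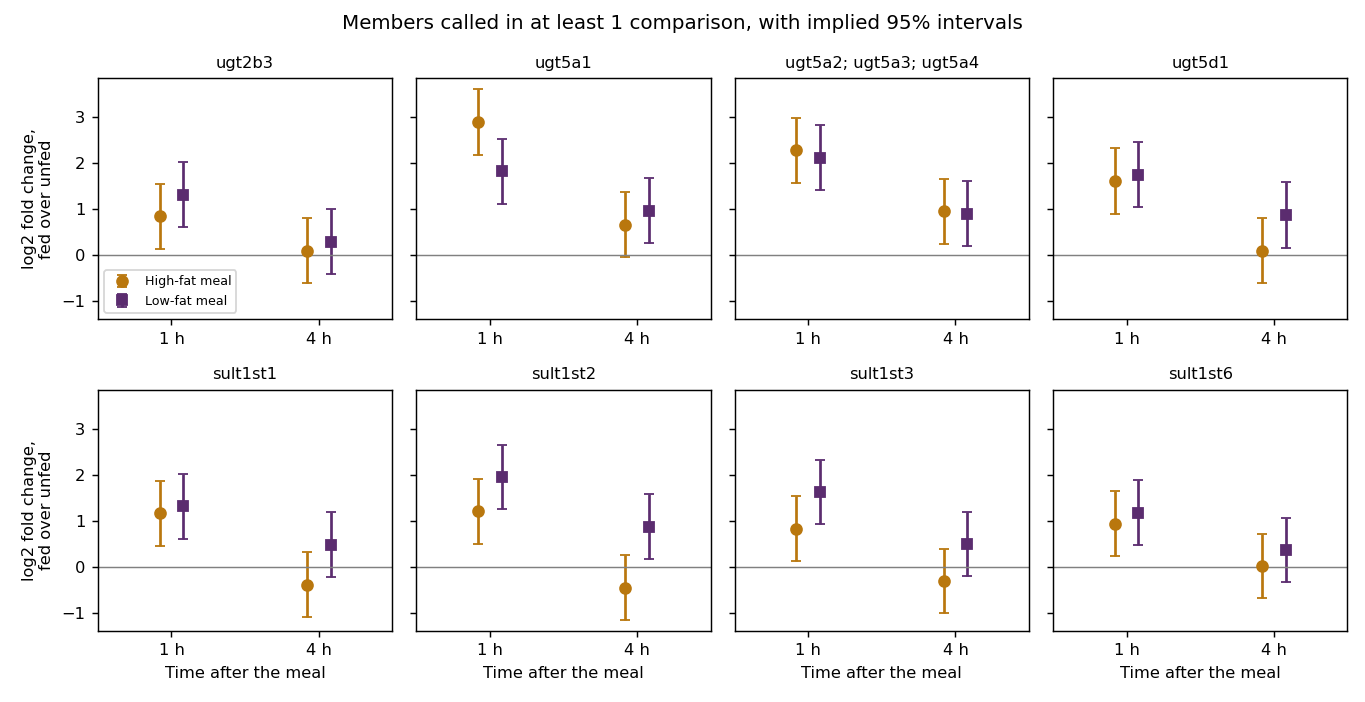
Log2 fold change (fed over unfed, from the authors' deposited table) of the 8 members called in at least 1 comparison, by time after the high-fat meal (circles) and the low-fat meal (squares); bars are 95% intervals from the implied standard error. At 1 h the values lie between 0.83 and 2.90, and at 4 h between -0.45 and 0.97.

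At 4 h after the meals no member was called, by the edgeR test of the authors' deposited table. After the high-fat meal 0 of 52 members were called in either direction, against 0.692% of all genes higher and 0.685% lower. An unadjusted p under 0.05 was reached by 2 members, or 3.85%, against 8.19% of all genes, a share below the background. These were ugt5a2;ugt5a3;ugt5a4 with 0.95 and ugt5e1 with 0.79 (adjusted p = 0.27 and 0.58 in the authors' deposited table). After the low-fat meal 0 of 52 were called, against 0.429% higher and 0.0415% lower. An unadjusted p under 0.05 was reached by 4 members, or 7.69%, against 2.85% of all genes. They were ugt5a1 (0.97), ugt5a2;ugt5a3;ugt5a4 (0.90), ugt5d1 (0.88) and sult1st2 (0.87) in the authors' deposited table, with adjusted p between 0.67 and 0.93. Other large values at 4 h, none of which passed, were those of gstk1 (0.69) and gstt1b (0.52) after the high-fat meal and gstp2 (0.59) after the low-fat meal in the authors' deposited table. The members' median was 0.08 after the high-fat and 0.19 after the low-fat meal at 4 h in the authors' deposited table, against 0.00 and 0.01 over all genes.

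Levels at 4 h were compared with those at 1 h by subtracting the fold changes of the same meal, in which the shared unfed larvae cancel. The sample labels give no time of day, so time since the meal and time of day cannot be told apart in these differences. They give no collection time for the unfed larvae either. In the fed versus unfed comparisons meal and time of day therefore cannot be told apart as well. After the high-fat meal 6 of 52 members (11.5%) were lower at 4 h than at 1 h by an approximate normal test on the implied errors, adjusted over 14452 genes, against 3.27% of all genes, and 0 were higher (3.24% of all genes). The difference for ugt5a1 was -2.23 ± 0.36 (implied standard error; adjusted p = 9.2e-08), with 0.66 at 4 h against 2.90 at 1 h in the authors' deposited table. For sult1st2 it was -1.66 ± 0.36 (adjusted p = 2.3e-04), with -0.45 at 4 h against 1.21 at 1 h in the authors' deposited table. The others were sult1st1 (-1.55, adjusted p = 7.7e-04), ugt5d1 (-1.52, adjusted p = 0.0012), ugt5a2;ugt5a3;ugt5a4 (-1.34, adjusted p = 0.0061) and sult1st3 (-1.13, adjusted p = 0.028), all differences between values of the authors' deposited table.

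After the low-fat meal 1 of 52 members, ugt5a2;ugt5a3;ugt5a4, was lower at 4 h than at 1 h (1.58% of all genes were, and 0.671% were higher, with 0 members). Its difference was -1.22 ± 0.36 (adjusted p = 0.036), with 0.90 at 4 h against 2.13 at 1 h in the authors' deposited table. The largest differences that did not pass were those of sult1st3 (-1.13, adjusted p = 0.064) and sult1st2 (-1.08, adjusted p = 0.086), between values of the authors' deposited table. A count of 1 among 52 (1.92%) is near that background. An unadjusted p under 0.05 was reached by 10 members (19.2%) after each meal, all lower at 4 h, against 8.34% of all genes lower after the high-fat and 5.69% after the low-fat meal. The 1 h samples enter both the calls at 1 h and these differences, and the implied errors leave out each gene's own spread between samples.

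High-fat and low-fat responses were compared by the same test, with both unfed groups in the error. At 1 h the difference passed for 0 of 52 members, against 0.27% of all genes with a higher and 0.782% with a lower response after the high-fat meal, and 2 (3.85%, against 5.65% of all genes) had an unadjusted p under 0.05. For ugt5a1 the high-fat minus low-fat difference was 1.07 (95% interval 0.06 to 2.07; adjusted p = 0.78), from 2.90 and 1.83 in the authors' deposited table. For sult5a1 it was 1.12 (0.06 to 2.17; adjusted p = 0.79), from 0.60 and -0.51 in the authors' deposited table. The sult1 trio leaned the other way without passing, with -0.15 for sult1st1, -0.75 for sult1st2 and -0.80 for sult1st3 (interval -1.80 to 0.19) between values of the authors' deposited table. Intervals about 2 log2 units wide leave room for sizeable differences, and the cohorts also differ, so a meal effect and a cohort effect cannot be told apart here.

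At 4 h the difference between the meals passed for 0 of 52 members (0.27% of all genes higher and 0.311% lower after the high-fat meal), with 1 (1.92%, against 4.33% of all genes) at an unadjusted p under 0.05. This was sult1st2, whose difference was -1.32 (interval -2.32 to -0.33; adjusted p = 0.51), from -0.45 after the high-fat and 0.87 after the low-fat meal in the authors' deposited table.

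The calls of both meals at 1 h overlapped. All 5 members called after the high-fat meal were also called after the low-fat meal in the authors' deposited table, which is 100% of the high-fat and 62.5% of the low-fat list. Over all genes 106 were called higher after both, 38.4% of the 276 high-fat and 27.2% of the 389 low-fat calls. Across the 52 members the log2 fold changes of the 2 meals at 1 h had a Pearson r of 0.78 and a Spearman rho of 0.61, against 0.47 and 0.49 across all genes. Members are not independent points, since neighbours share intervals and perhaps reads, and the 2 comparisons share no samples.

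**Figure D3:**
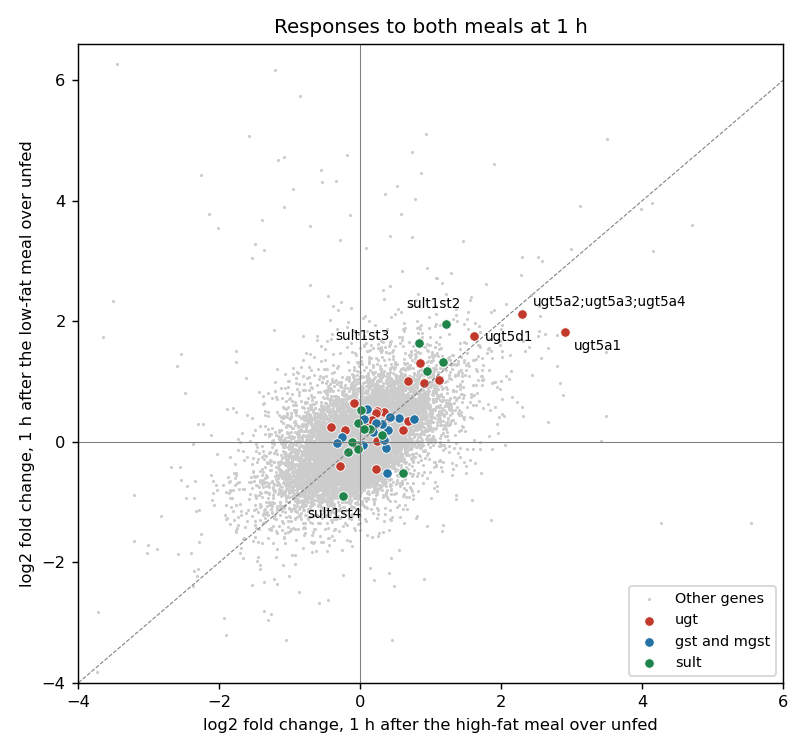
Log2 fold change at 1 h after the low-fat meal (vertical) against that at 1 h after the high-fat meal (horizontal), each over unfed larvae of its cohort, from the authors' deposited table; coloured points are members by family, grey points all other genes (1 lies outside the axes), and the dashed line marks equal responses. The ugt5a rows and ugt5d1 stand at the upper right, with values above 1.6 in both, and the gst points lie near the centre.

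Many members lie beside each other in the genome: 29 of 52 are within 100 kb of another member, in 11 groups. Neighbours had similar values in some groups and not in others. In the sult1 trio all 3 genes had values above 0.8 at 1 h after both meals in the authors' deposited table. The ugt2b group on chromosome 5 from 9830088 to 9885949 ran from -0.09 for ugt2b6 to 1.12 for ugt2b5 after the high-fat meal, and from 0.64 to 1.31 after the low-fat meal, in the authors' deposited table. In the gsto pair on chromosome 13, gsto1 had -0.52 and gsto2 0.40 at 1 h after the low-fat meal in the authors' deposited table, and neither passed (adjusted p = 0.71 and 0.89). Copies this close in position can be close in sequence too, and how reads shared between copies were counted is not given in the sources used here.

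**Figure D4:**
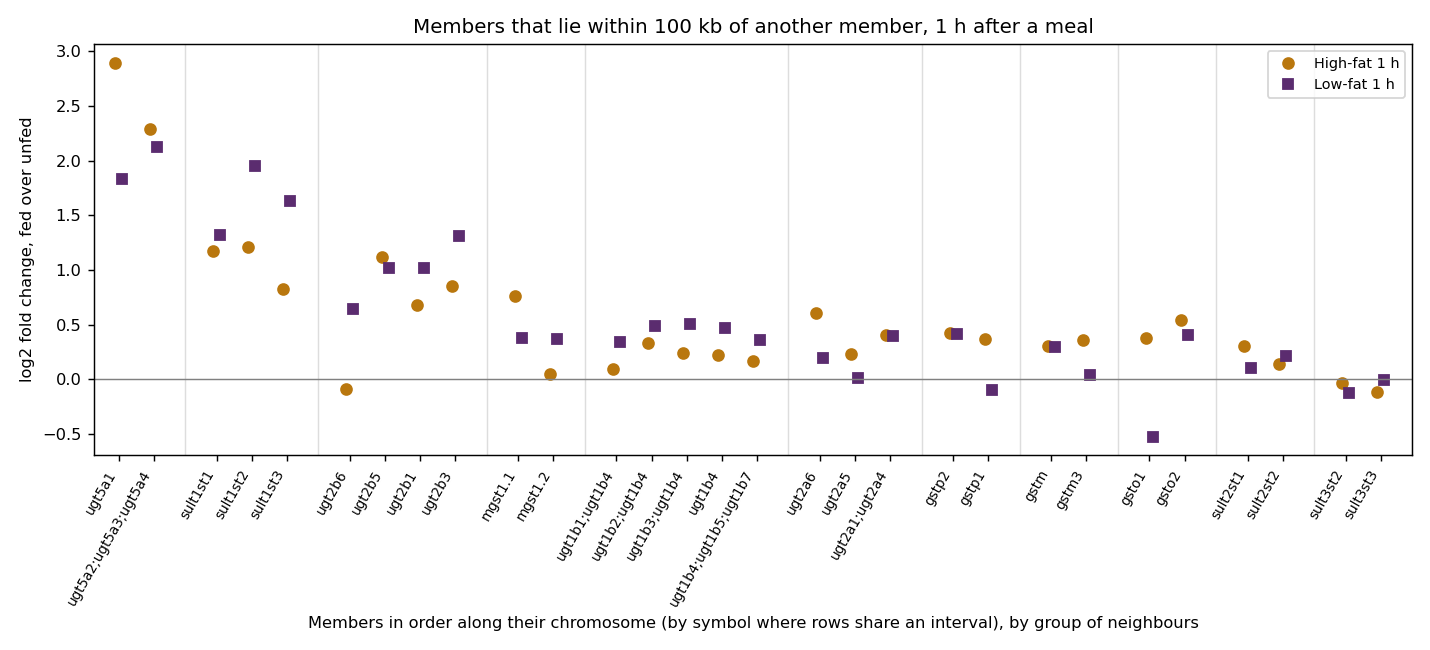
Log2 fold change (fed over unfed, from the authors' deposited table) at 1 h after the high-fat meal (circles) and the low-fat meal (squares) for the 29 members within 100 kb of another member, set in their order along the chromosome and separated by grey lines into 11 groups. The ugt5a pair lies highest, between 1.83 and 2.90, the sult1 trio lies between 0.83 and 1.96, and the sult3 pair lies near 0.

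A list of genes around the donor molecules and methionine had a share of calls above the background after the high-fat meal and near it after the low-fat meal. This list and those that follow were chosen with earlier results of these data known. Their shares are therefore description and no independent support. The list held 35 measured genes for the supply or turnover of UDP-glucuronic acid, glutathione, methionine and PAPS or sulfate. At 1 h after the high-fat meal 3 were called higher (8.57%, against 1.91% of all genes) and 0 lower. At 1 h after the low-fat meal 1 was called higher (2.86%, against 2.69% of all genes) and 0 lower, in the authors' deposited table. The list medians at 1 h were 0.27 and 0.13, and 0 genes were called at 4 h after either meal in the authors' deposited table. The dehydrogenase gene ugdh, which makes UDP-glucuronic acid for the ugt enzymes, rose 2.47-fold and 2.72-fold at 1 h after the high-fat and the low-fat meal (adjusted p = 0.019 and 0.0054 in the authors' deposited table). After the high-fat meal gclm, the regulatory subunit of the first enzyme of glutathione synthesis, rose by 1.27 and mat2aa, which makes S-adenosylmethionine, by 1.90 (adjusted p = 0.026 and 7.1e-05 in the authors' deposited table). S-adenosylmethionine is not a donor of the ugt, gst or sult enzymes. At 1 h after the low-fat meal gclm had 0.63 and mat2aa 0.98, and neither passed (adjusted p = 0.56 and 0.13 in the authors' deposited table). The 3 genes of the list with the most reads, ahcy, chac1 and mat1a, of methionine and glutathione turnover, were not called in any comparison of the authors' deposited table.

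The PAPS synthase genes, singled out after their values were seen because they make the donor of the sult enzymes, did not pass. For papss2b the authors' deposited table gave 0.97 and 0.54 at 1 h after the high-fat and the low-fat meal (adjusted p = 0.15 and 0.70), and for papss2a it gave 0.89 and 0.71 (adjusted p = 0.21 and 0.42). The values of papss1 were 0.25 and -0.26 at 1 h in the authors' deposited table, with an adjusted p of 1 in both. The catalytic subunit gene gclc, also picked afterwards, had 0.27 and 0.09 at 1 h in the authors' deposited table. From the same list ugp2a and ugp2b, of the supply of UDP-glucuronic acid, were picked afterwards too. At 1 h after the high-fat and the low-fat meal ugp2a had 0.18 and 0.03 and ugp2b 0.18 and 0.43. Neither was called in any comparison of the authors' deposited table.

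Among 38 measured regulators and targets of the response to foreign compounds, 0 were called at 1 h after the high-fat meal and 2 higher (5.26%, against 2.69% of all genes) and 3 lower (7.89%, against 1.43%) at 1 h after the low-fat meal in the authors' deposited table. The list medians at 1 h were -0.10 and -0.04, and 0 were called at 4 h. After the low-fat meal the aryl hydrocarbon receptor gene ahr1a (6.22 CPM) rose by 1.63 and the liver and gut factor gene hnf4a by 1.21 (adjusted p = 0.0014 and 0.034 in the authors' deposited table). The 3 genes of the list with the most reads, cyp3a65, gpx4a and abcb4, were not called in any comparison. Nor were ahr2, cyp1a, nfe2l2a and nr1i2, picked afterwards. At 1 h after the high-fat and the low-fat meal ahr2 (67.4 CPM) had -0.22 and -0.30, and cyp1a had 0.14 and 0.64. The heme oxygenase gene hmox1a (-2.17), the quinone reductase gene nqo1 (-1.31) and arntl1a (-1.67), a clock factor, fell in larvae fed the low-fat meal 1 h before (adjusted p = 1.7e-06, 0.015 and 0.0011 in the authors' deposited table). Among 22 measured genes of other conjugations and of export 0 were called after the high-fat meal and 2 higher (9.09%, against 2.69% of all genes) at 1 h after the low-fat meal in the authors' deposited table. These were hnmt, a histamine methyltransferase (1.41), and slc47a1, an exporter of organic cations (1.32), with adjusted p of 0.0096 and 0.015 in the authors' deposited table. The gene abcc2, which exports glucuronides and other conjugates, had 0.24 and 0.38 at 1 h after the high-fat and the low-fat meal in the authors' deposited table and did not pass.

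Marker genes of hepatocytes and exocrine pancreas were not called in any comparison, while some of enterocytes were. The samples are bulk tissue, in which fewer cells of a type and less RNA per cell cannot be told apart. Of 15 measured enterocyte markers, 14 were above 0 at 1 h after each meal, against 47.8% and 51.8% of all genes after the high-fat and the low-fat meal. Their medians were 0.59 and 0.44 in the authors' deposited table. Called higher were 2 (13.3%, against 1.91% of all genes) after the high-fat and 3 (20%, against 2.69%) after the low-fat meal. The called ones were elovl7b, a fatty acid elongase gene (2.29 and 3.06 after the high-fat and the low-fat meal), sult1st1 after both and the amino acid transporter gene slc6a19a after the low-fat meal (1.56), in the authors' deposited table. Of the 15 markers elovl7b had the lowest average, 0.27 on the log2 CPM scale, against a list median of 9.13. The 3 markers with the most reads, apobb, apoa1b and apoa4, were not called in any comparison. The list holds a member, sult1st1. Without it 14 markers had medians of 0.57 and 0.44 in the authors' deposited table. Of these 1 (7.14%, against 1.91% of all genes) and 2 (14.3%, against 2.69%) were called higher after the high-fat and the low-fat meal. At 4 h the full list's medians were 0.18 and 0.16 in the authors' deposited table. After the high-fat meal 1 was called higher, the fatty acid binding protein gene fabp1b.1 (1.34). That is 6.67% of the list, against 0.692% of all genes, and 0 were called after the low-fat meal. Of 16 hepatocyte and 12 exocrine pancreas markers 0 were called, and their medians at 1 h lay between -0.16 and 0.12 in the authors' deposited table. Above 0 at 1 h after the high-fat and the low-fat meal were 6 and 12 hepatocyte markers and 0 and 7 pancreas markers. The medians at 4 h after the high-fat and the low-fat meal were -0.32 and -0.18 for hepatocytes and -0.08 and -0.12 for pancreas. With at most 2.69% of all genes called higher and 1.76% lower in a comparison, no call in lists this short is near the background. The part of enterocyte content in the ugt and sult values was not tested.

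Genes of tissues outside the digestive organs were measured too, and some muscle genes fell after the high-fat meal. The medians of 25 measured skeletal muscle genes were -0.72 at 1 h and -1.05 at 4 h in the high-fat comparisons of the authors' deposited table. At 1 h 1 was called higher (4%, against 1.91% of all genes) and 3 lower (12%, against 1.76%). At 4 h 0 were called higher (0.692% of all genes) and 6 lower (24%, against 0.685%). Low-fat medians of these genes were 0.28 and -0.09 with 0 called in the authors' deposited table. Of 9 epidermis markers 1 was called lower at 1 h after the high-fat meal (11.1%, against 1.76% of all genes). Their medians at 1 h were 0.15 and 0.55 after the high-fat and the low-fat meal in the authors' deposited table. The 4 measured blood markers had medians of -0.25 and 0.60 with 0 called at 1 h after the high-fat and the low-fat meal. The 8 leukocyte markers had 0.01 and -0.53 at 1 h in the authors' deposited table. Of these 0 were called lower after the high-fat meal (1.76% of all genes) and 2 after the low-fat meal (25%, against 1.43%). At 4 h after the high-fat meal mpx was called higher (2.17) and il1b lower (-1.47) in the authors' deposited table. Each is 12.5% of the list, against 0.692% of all genes higher and 0.685% lower. At 4 h after the low-fat meal 0 were called. The part of these tissues' genes in the members' values was not tested.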

How the data were processed

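Poly(A) RNA was sequenced in reads of 50 bases, 6 samples per lane, per the labels' protocols. The submitters' processing notes name TopHat2, edgeR and the build Zv9, with no versions; the sources used here give neither the read counter nor the annotation release. The deposited table holds 56754 transcripts and 0 columns of single samples. Per the file headers it gives 1 average log2 CPM per transcript and, in each comparison, the log2 ratio with its p-value before and after adjustment. The deposited adjusted p-values match Benjamini-Hochberg values over the whole table. The planned count tests could not be used, so the calls are the authors'. Starts count from 0 in the table (4 rows start at 0) and are printed with 1 added.

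Computations made here used Python 3.11.15, pandas 2.3.3 and SciPy 1.17.1. They were the choice of 1 row per symbol, list counts and implied standard errors (the median by log2 CPM, over changes above 0.5 in size). The differences between meals and times were computed too, with their approximate normal test (two-sided, Benjamini-Hochberg over 14452 genes). The members and lists were chosen with earlier results of these data known. The rule for named members took all called ones, the 5 largest changes per comparison (average log2 CPM of at least 1), the 3 of each family with the most reads and those whose difference passed. Members outside it (ugt2b1, ugt2b5, ugt2b6, ugt5c3, ugt5f1, ugt5g1, gsto1, mgst1.1, sult1st4, sult1st5, sult5a1) and those under the minimum were named after their values were seen. Of 61 gene symbols in the members' rows 59 matched RefSeq names. Those without a match were ugt2a6 and ugt2b3, of which ugt2b3 is a called member. Alternatives were another adjustment, threshold, expression minimum, transcript choice, centring and error, and leaving out joined rows.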

Additional observations from a re-analysis of the deposited data

Results flagged for a closer look

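In 7 cases a member's response differed between the 2 times after a meal by the test of the difference itself. All are differences of log2 fold changes of the authors' deposited table, 4 h minus 1 h, and all are negative. After the high-fat meal they were -2.23 for ugt5a1, -1.66 for sult1st2, -1.55 for sult1st1, -1.52 for ugt5d1, -1.34 for ugt5a2;ugt5a3;ugt5a4 and -1.13 for sult1st3. These are 6 of 52 members, or 11.5%, against 3.27% of all genes lower at 4 h by the same test. After the low-fat meal the difference that passed was -1.22 for ugt5a2;ugt5a3;ugt5a4, and 1 of 52 members, or 1.92%, is near the 1.58% of all genes. Whether the time difference itself differs between the meals was not tested. No member's difference between the meals passed that test at either time.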

How the results depend on the processing

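No paired analysis was possible because the deposited table holds no values of single samples; for the same reason fits with DESeq2 or other size factors, with the replicate number as a block and with a replicate left out were not run. Of the recomputed counts and medians 57 stayed within 1.5 times the reported count or within 1 implied standard error of the reported median. That error, about 0.36, exceeds the median of the 52 members in each comparison, so this bound would not detect a median that disappeared. The recomputed medians at 1 h lay between 0.23 and 0.30 after the high-fat and between 0.21 and 0.31 after the low-fat meal. The counts called at 4 h were 0 in every setting. At an adjusted p under 0.01 the members called at 1 h numbered 3 after the high-fat and 5 after the low-fat meal, against 5 and 8 in the report, and at an adjusted p under 0.10 the members lower at 4 h than at 1 h after the low-fat meal numbered 3, against 1. Keeping 1 row per shared interval, an alternative added after the data were seen, left 4 and 7 calls at 1 h after the high-fat and the low-fat meal. Of 160 recomputed values of the 20 named members (over all transcripts of a symbol, or centred on all genes), none of a called member changed sign, and taking the median over transcripts changed no call; 5 values of uncalled members changed sign, the largest of them ugt5b2;ugt5b4 at 4 h after the low-fat meal (0.22 as reported, -0.02 over its transcripts). The implied errors follow the expression level and carry nothing of a member's own spread between samples, so a member whose samples varied more than most has too narrow an interval. At 1 h after the low-fat meal the adjusted p of the authors' deposited edgeR table also followed the fold change closely. Values of 1.32, 1.32, 1.31 and -1.31 (sult1st1, slc47a1, ugt2b3 and nqo1) had 0.016, 0.015, 0.016 and 0.015. At 1 h after the high-fat meal the adjusted p of that edgeR table was 0.48 for both apobb and ugt5b2;ugt5b4, each at 0.68. For pvalb2 and cyt1l, each at -1.38, it was 0.011 and 0.012. These genes were picked after their values were seen. The authors' calls may thus hold little of a gene's own spread too, which was not tested.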

Other observations

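Of 26 members with several transcripts above the minimum, 5 (mgst1.1, sult2st1, ugt2a6, ugt2b6 and ugt5b2;ugt5b4) had transcripts more than 0.36 apart on the log2 scale, about 1 implied standard error, in at least 1 comparison of the authors' deposited table. The 2 transcripts of ugt2b6 differed by 0.99 at 1 h after the high-fat meal (-0.09 and 0.90 in the authors' deposited table), and neither was called. A second transcript of ugt2b3, ENSDART00000061624, lies apart from the first on chromosome 5 from 9935657 to 9942685, near the expression minimum at a log2 CPM of -0.57. It was called as well in larvae 1 h past the low-fat meal, at 1.64 in the authors' deposited table (adjusted p = 0.0051).

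The 5 matching symbols below the expression minimum were sult1st7, sult1st8, ugt5c1, ugt5c2 and ugt5g2, and none was called in the authors' deposited table. The genes sult1st7 and sult1st8 lie just before the sult1 trio on chromosome 8. At 1 h after the low-fat meal, where the trio rose, both had -0.05 in the authors' deposited table, at averages of -1.25 and -3.07 on the log2 CPM scale. At 1 h after the high-fat meal they had 0.48 and -2.86 (adjusted p = 1 and 0.14 in the authors' deposited table).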
